A study of Mus musculus with 4 samples.

Results

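Deposited cluster 12 is a set of brain tissue spots in which fibroblast-like cells of the meninges and vessel walls had the largest mean estimated share. Its members were all spots with cluster number 12 in the authors' tables of 4 sagittal mouse brain sections, 307 of 14809 spots in all, or 2.07%. Of these, 87 lay in the ketamine-treated susceptible section, 71 in the susceptible section, 89 in the resilient section and 60 in the control section. Each group was a single section of a wild-type C57 mouse, so there were no replicates and no difference below carries a test across mice. The sources used here give neither age nor sex.

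The study put mice through chronic social defeat stress (CSDS) and used a social interaction test to call them susceptible or resilient. Some susceptible mice then received ketamine by intraperitoneal injection at 10 mg/kg, and behaviour and tissue were examined 7 days later. The susceptible, resilient and control mice received saline. The title sets the question as whether myelin repair underlies a lasting effect of ketamine. Spatial transcriptomics reads RNA from small barcoded areas of a slide, each of which can hold several cells. What was deposited per spot is the fraction assigned to each of 67 cell types plus an unknown column, which sum to 1. These are relative estimates, so fewer cells of a type and less RNA per cell cannot be told apart, and a rise in any type's share takes from the rest.

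Vascular and leptomeningeal cells (VLMC) are collagen-producing fibroblast-like cells of the pia and arachnoid and of the sheath around larger vessels. Smooth muscle cells (SMC) wrap arteries and arterioles, pericytes (Peri) sit on capillaries, and endothelial cells (Endo) line all vessels. Perivascular macrophages (PVM) live in the space around vessels and in the meninges, while microglia (Micro) live in the tissue proper. Astrocytes (Astro) close the brain surface and cover vessels with their endfeet.

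The share of a section's spots that fell in cluster 12 was 2.50% in the ketamine-treated section (exact Clopper-Pearson 95% interval 2.01 to 3.08), 2.06% in the susceptible section (1.61 to 2.59), 2.14% in the resilient section (1.72 to 2.63) and 1.61% in the control section (1.23 to 2.06). The control section had the lowest share, but its interval overlapped those of the other 3 sections. All intervals here cover counting error only, and neighbouring spots are not independent.

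VLMC led the cluster in every section. Its mean share was 41.6% in the ketamine-treated, 42.95% in the susceptible, 44.8% in the resilient and 39.6% in the control section, with standard deviations between spots of 25.2, 26.3, 25.8 and 27.1 percentage points. VLMC was held by 73 of 87, 61 of 71, 79 of 89 and 52 of 60 spots in the same order, 265 of 307 or 86.3% in all. The working label of VLMC and vascular spots was drawn from the same deposited shares, so these values describe it and do not test it. Astrocytes were the second type in every section, at 24.1%, 27.7%, 22.5% and 23.8%, and pericytes were all but missing.

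**Figure D1:**
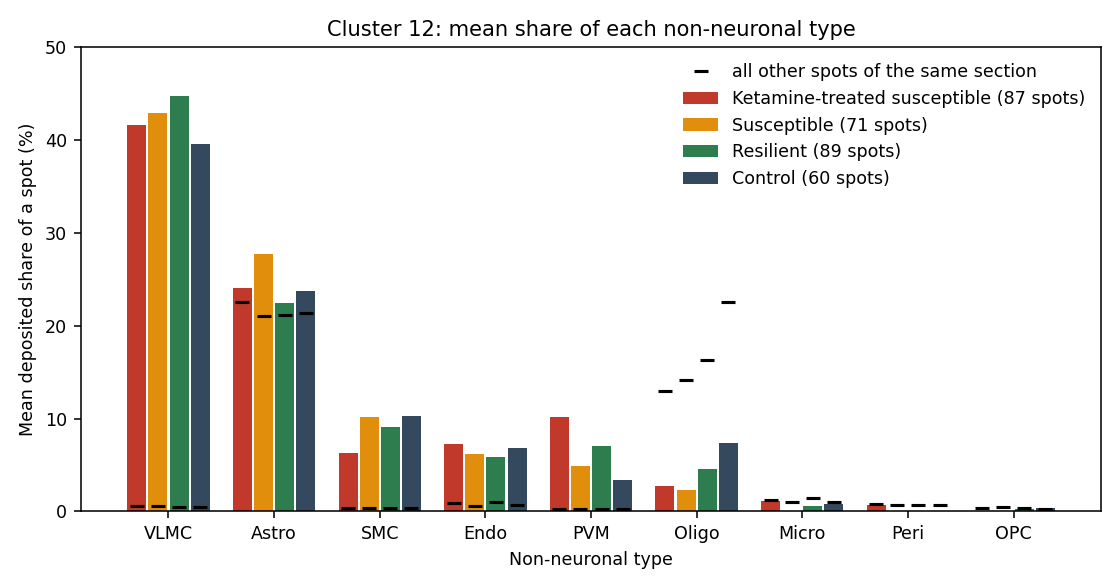
Mean deposited share (percent of a spot, vertical axis) of the 9 non-neuronal types over the spots of cluster 12, with 1 bar per section; black dashes give the mean over all other spots of the same section. VLMC stands near 40% in all sections against about 0.5% elsewhere, astrocytes lie close to their level elsewhere, and Oligo lies below it. No error bars are drawn because spots are not replicates.

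The VLMC share varied widely from spot to spot. The median was 41.4% in the ketamine-treated section (quartiles 29.4 and 55.2), 40.2% in the susceptible section (27.7 and 61.0), 43.4% in the resilient section (30.2 and 59.2) and 34.1% in the control section (23.2 and 51.5). The middle ranges of the 4 sections overlapped over most of their length. VLMC took at least 50% of the spot in 32, 28, 31 and 16 spots, and the whole spot in 4, 4, 6 and 6. It was at 0 in 14, 10, 10 and 8 spots. Where VLMC was kept at all, its smallest share was 22.1%, 17.97%, 14.3% and 18.1%, while the smallest share of any type above 0 in the cluster was 11.2%.

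**Figure D2:**
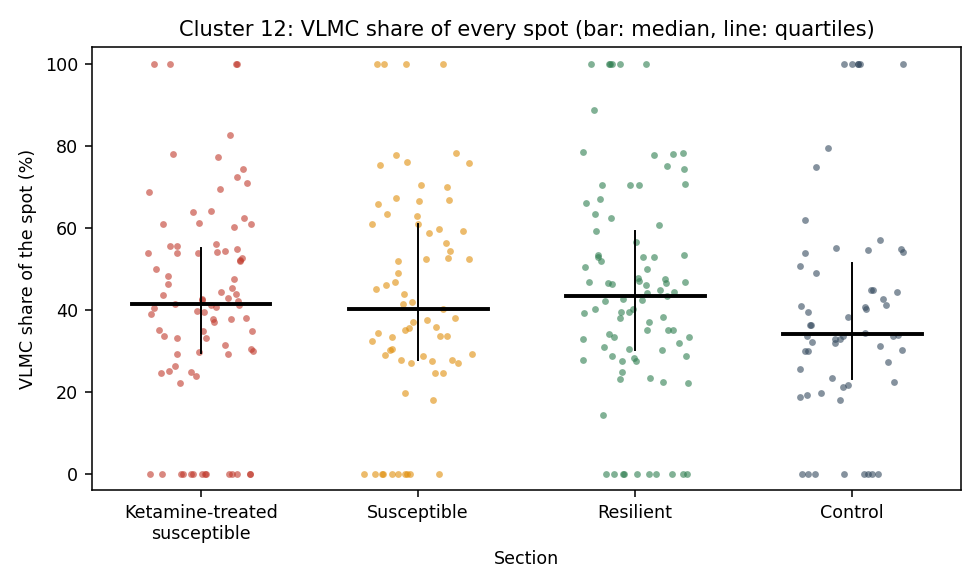
VLMC share (percent, vertical axis) of every cluster 12 spot, by section; thick bars are medians and thin lines join the quartiles, and horizontal scatter has no meaning. The control median of 34.1% is the lowest of the 4, and spots at 0 and at 100% occur in each section.

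Counted by the type with the highest share in the spot, VLMC led 52 of 87 ketamine-treated spots, 35 of 71 susceptible spots, 51 of 89 resilient spots and 27 of 60 control spots. These are 59.8% (48.7 to 70.1), 49.3% (37.2 to 61.4), 57.3% (46.4 to 67.7) and 45.0% (32.1 to 58.4), with overlapping intervals. Astro led 18, 21, 21 and 16 spots, SMC 5, 7, 7 and 9, PVM 7, 2, 2 and 0, and Endo 2, 2, 1 and 4. Over the 4 sections, VLMC led 165 spots, Astro 76, SMC 28, PVM 11, Endo 9 and Oligo 7.

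Most spots of the cluster carried no neuronal share. In 251 of 307 spots, or 81.8%, all kept types were non-neuronal, against 21.5% of the spots of the other clusters. The 307 spots held 91 different sets of types. The commonest were Astro with VLMC (50 spots), Astro with PVM and VLMC (22), VLMC alone (20), Astro with SMC and VLMC (19) and Astro with Endo and VLMC (12). Cluster 12 spots held 2.61 types on average in the ketamine-treated section, 2.48 in the susceptible, 2.72 in the resilient and 2.83 in the control section. The other spots with a type held 2.21, 2.14, 2.36 and 2.29, so a spot of the cluster had somewhat more room to show a given type. No spot of the cluster was left without a type, against 3.54%, 4.27%, 2.31% and 3.64% of all spots of the sections. By the limit of 3 spots, a count of 0 allows up to 3.45%, 4.23%, 3.37% and 5.00% of cluster 12 spots.

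Set beside the rest of the brain, the cluster concentrated the section's fibroblast-like cells. Outside it, the mean VLMC share was 0.579% in the ketamine-treated, 0.547% in the susceptible, 0.502% in the resilient and 0.500% in the control section. Cluster 12 thus held 64.9%, 62.3%, 66.1% and 56.4% of each section's summed VLMC share. The authors formed the clusters from these same spots, so every contrast of cluster 12 with the rest is a description, with no test. Cluster 12 ranked first of all clusters in every section for VLMC, SMC, Endo and PVM alike. It ranked between the sixth and the twelfth for Astro.

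The cluster nearest to it in VLMC was cluster 13, where Astro had the highest mean of the non-neuronal types in 3 of the sections. It averaged 5.87% VLMC in the ketamine-treated (68 spots), 4.59% in the susceptible (122 spots), 9.23% in the resilient (32 spots) and 12.005% in the control section (38 spots). VLMC was held by 17.6% of ketamine-treated, 12.3% of susceptible, 28.1% of resilient and 28.9% of control spots of cluster 13, against at least 83.9% of cluster 12 spots in any section. Meis2, a GABAergic neuron type that averaged 12.2%, 10.4%, 2.53% and 10.4% in cluster 13, was seen in 1 spot of cluster 12. Cluster 13 held no pericyte spot in any section. Its mean SMC share was 0.626% in the ketamine-treated, 2.97% in the susceptible, 6.33% in the resilient and 1.62% in the control section. In the resilient section it came near cluster 12 for SMC, with 25% of spots holding it against 25.8%, and a mean of 6.33% against 9.04%.

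**Figure D3:**
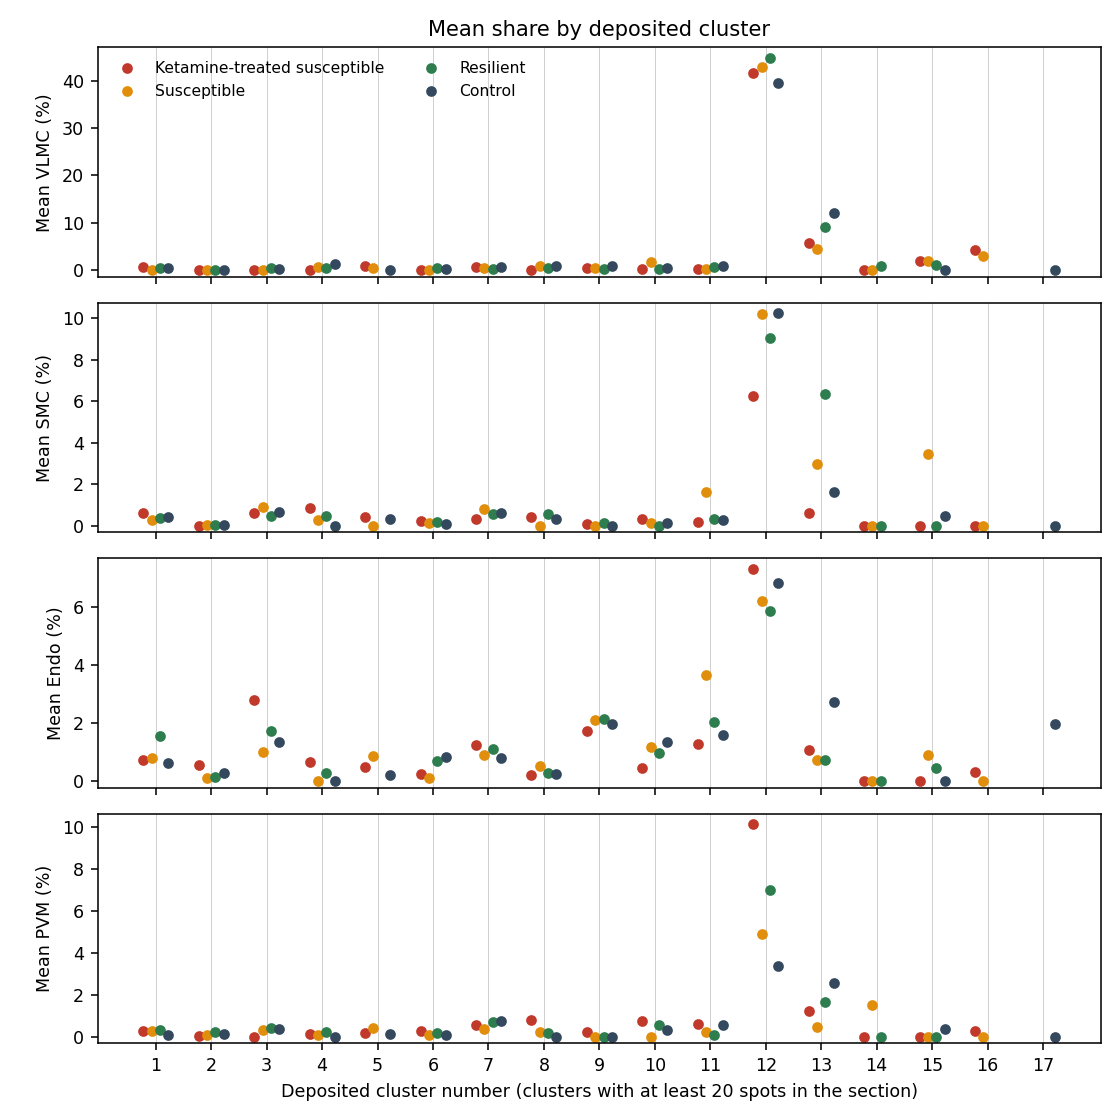
Mean share (percent, vertical axes) of VLMC, SMC, Endo and PVM in each deposited cluster (horizontal axis), with 1 point per section where the section has at least 20 spots of that cluster. Cluster 12 stands above every other plotted cluster for all 4 types, and cluster 13 comes next for VLMC, at 4.59% to 12.005%.

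VLMC also occurred outside the cluster, in 55 ketamine-treated, 50 susceptible, 60 resilient and 51 control spots. In cluster 12, spots with VLMC held any neuronal type in 14.3% of cases (38 of 265, interval 10.4 to 19.1), whereas VLMC spots of the other clusters did so in 52.8% (114 of 216, 45.9 to 59.6). Oligo, the oligodendrocyte type that makes myelin, was in 11.7% of the first (8.09 to 16.2) and 34.7% of the second (28.4 to 41.5). PVM was in 25.7% (20.5 to 31.4) and 5.56% (2.90 to 9.50), SMC in 24.5% (19.5 to 30.2) and 6.94% (3.94 to 11.2), and Endo in 25.3% (20.2 to 31.0) and 15.3% (10.8 to 20.8). The Endo intervals just overlapped. Astro was in 62.3% (56.1 to 68.1) and 59.3% (52.4 to 65.9), also with overlapping intervals. Where VLMC was held, its median share was 44.0% in cluster 12 and 31.7% elsewhere. Spots without VLMC also differed between cluster 12 and the other clusters. They held any neuronal type in 42.9% and 75.4%, PVM in 19.0% and 0.756%, SMC in 31.0% and 0.959%, and Endo in 26.2% and 2.36%. Outside cluster 12, VLMC spots thus held PVM, SMC and Endo more often than spots without VLMC. Within it, the intervals of spots with and without VLMC overlapped for PVM, SMC and Endo.

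Smooth muscle was the second vascular type in 3 of the 4 sections. SMC averaged 6.24% in the ketamine-treated, 10.2% in the susceptible, 9.04% in the resilient and 10.2% in the control section, and was held by 19, 18, 23 and 18 spots. In all other spots it averaged 0.338%, 0.393%, 0.342% and 0.312%. Cluster 12 held 32.1%, 35.3%, 36.7% and 34.9% of the summed SMC share, a similar part in every section. Where SMC was held in the cluster, its median share was 23.99%, 33.4%, 31.4% and 29.97%, lowest in the ketamine-treated section. Over the sections, 65 of the 78 SMC spots of cluster 12 also held VLMC (83.3%, 73.2 to 90.8), against 15 of 152 SMC spots elsewhere (9.87%, 5.63 to 15.8). VLMC was in 86.3% of all cluster 12 spots and 1.49% of all other spots. SMC spots of the cluster thus held VLMC about as often as its spots in general, while SMC spots elsewhere held it more often.

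Pericytes, the other mural type, were nearly absent from cluster 12. Peri was found in 3 ketamine-treated spots and in no spot of the susceptible, resilient or control section. The 3 spots had Peri shares from 17.1% to 23.7%, and all 3 also held VLMC. SMC made up 90.3% of the kept mural share of the cluster in the ketamine-treated section and all of it in the other sections, against 29.9%, 36.6%, 33.3% and 30.5% in the other spots. Pooled over sections, Peri was held by 0.977% of cluster 12 spots (0.202 to 2.83) and 1.80% of the other spots (1.59 to 2.03). These intervals overlapped, and the clearer contrast with the other spots was in the mix of mural types.

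Endothelial cells were held by a nearly equal share of spots in the 4 sections. Endo averaged 7.31% in the ketamine-treated, 6.20% in the susceptible, 5.86% in the resilient and 6.81% in the control section, and was in 25.3%, 25.4%, 25.8% and 25% of spots. The percentages of spots lay within 1 point of each other, while the mean shares and the part of the section total varied more. Elsewhere Endo averaged 0.848%, 0.620%, 0.972% and 0.697% in the same order. Cluster 12 held 18.1%, 17.4%, 11.7% and 13.8% of the summed Endo share, a smaller part than for VLMC, SMC or PVM. Of the whole vascular share of the cluster, VLMC made up 74.6%, 72.4%, 75.03% and 69.9%, against 22.6%, 24.4%, 20.1% and 22.5% in the other spots.

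The vascular list as a whole (Endo, Peri, SMC and VLMC) averaged 55.8% in the ketamine-treated, 59.3% in the susceptible, 59.7% in the resilient and 56.6% in the control section. It was present in 78 of 87, 66 of 71, 85 of 89 and 57 of 60 spots. Of the 42 spots without VLMC, 21 held another vascular type. Astro led 20 of these 42 spots and SMC 8, and any neuronal type was in 18 of them (42.9%, 27.7 to 59.0), against 14.3% of the spots with VLMC. In 17 of 307 spots neither a vascular type nor PVM was kept.

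Astrocytes were widespread, and the share of spots holding them was close between the sections. Astro was held by 56 of 87 ketamine-treated spots (64.4%, 53.4 to 74.4), 47 of 71 susceptible spots (66.2%, 54.0 to 77.0), 57 of 89 resilient spots (64.0%, 53.2 to 73.9) and 37 of 60 control spots (61.7%, 48.2 to 73.9). Astro led 20.7% of ketamine-treated, 29.6% of susceptible, 23.6% of resilient and 26.7% of control spots, a wider spread, with overlapping intervals. In the other spots it was held by 45.0%, 41.2%, 43.3% and 47.2%. The mean share in the cluster was 1.07, 1.32, 1.07 and 1.11 times that of the other spots, since the cluster held Astro more often but in smaller portions. Its median where held was 36.0%, 37.4%, 32.9% and 32.5% in cluster 12, against 43.9%, 44.8%, 41.9% and 38.6% elsewhere. Spots with Astro held SMC, Endo and PVM less often than spots without: 20.8% against 33.6%, 19.3% against 36.4%, and 20.3% against 32.7%. The shares of a spot sum to 1, which by itself sets types against each other.

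Perivascular macrophages had the widest range of mean share between the sections, in percentage points, among VLMC, Astro, SMC, Endo, PVM and Oligo. By fold, Oligo ranged slightly more widely, from 2.25% in the susceptible to 7.32% in the control section. PVM averaged 10.1% in the ketamine-treated, 4.90% in the susceptible, 7.00% in the resilient and 3.37% in the control section. It was held by 27 of 87 spots (31.03%, 21.5 to 41.9), 13 of 71 (18.3%, 10.1 to 29.3), 27 of 89 (30.3%, 21.03 to 40.99) and 9 of 60 (15%, 7.10 to 26.6). By spots holding PVM, the ketamine-treated and resilient sections were high and the susceptible and control sections low, but all 4 intervals overlapped. By mean share, the resilient section lay nearer in points to the susceptible than to the ketamine-treated section. The susceptible over resilient ratio of PVM depended on the measure. It was 0.604 by spots holding it, 0.883 with shares under 20% set to 0 and 1.25 by spots led, on 2 spots each. PVM led 7, 2, 2 and 0 spots, and its highest share in 1 spot was 76.2%, 39.8%, 35.1% and 30.4%. Where PVM was held, its median was 26.0%, 25.3%, 22.9% and 20.6%.

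Cluster 12 was also where a large part of each section's PVM lay. It held 49.5% of the summed PVM share in the ketamine-treated, 31.3% in the susceptible, 35.3% in the resilient and 20.9% in the control section. Outside the cluster PVM averaged 0.265%, 0.227%, 0.281% and 0.209%. The section-wide mean of PVM was 0.252 percentage points higher in the ketamine-treated than in the control section, of which cluster 12 contributed 0.199 and all other spots 0.0525. Against the susceptible section, the ketamine-treated mean was 0.189 points higher, of which 0.153 came from cluster 12. These parts include the larger number of cluster 12 spots in the ketamine-treated section. Of the 76 PVM spots of the cluster, 68 also held VLMC (89.5%, 80.3 to 95.3), against 12 of 120 PVM spots elsewhere (10.0%, 5.27 to 16.8). The share for all cluster 12 spots, 86.3%, lay within the first interval. For all other spots it was 1.49%, below the second.

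Microglia showed none of this concentration. Micro averaged 1.10% in the ketamine-treated, 0% in the susceptible, 0.561% in the resilient and 0.783% in the control section, in 3, 0, 2 and 2 spots. Elsewhere it averaged 1.21%, 0.986%, 1.47% and 1.05%. PVM made up 90.2%, 100%, 92.6% and 81.2% of the kept share of microglia and macrophages in the cluster, against 17.9%, 18.7%, 16.1% and 16.6% in the other spots.

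**Figure D4:**
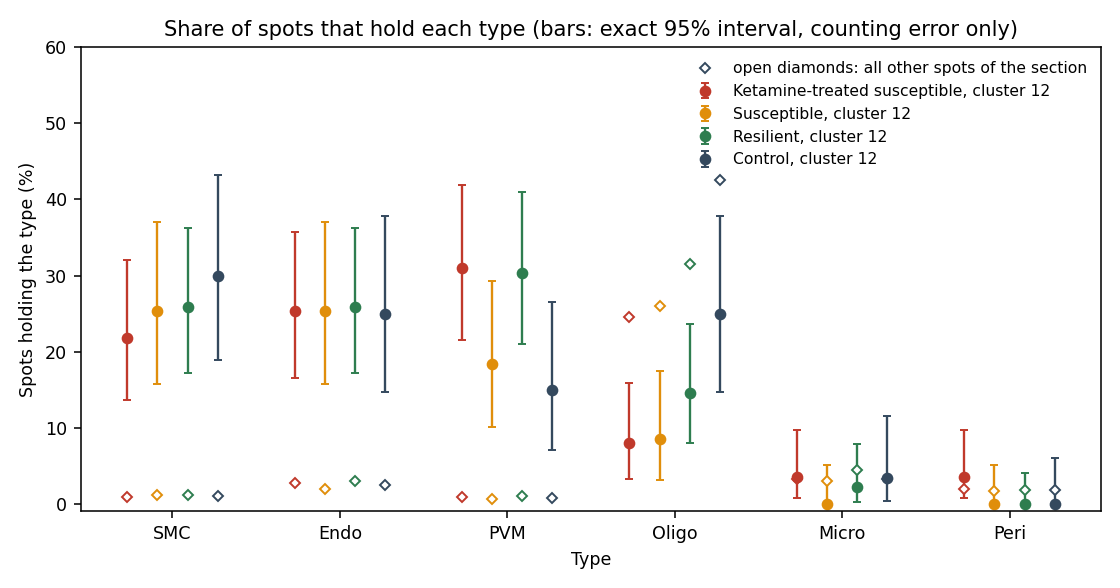
Share of spots (percent, vertical axis) that hold each of 6 types in cluster 12, as filled points with exact 95% intervals for counting error, and in all other spots of the section, as open diamonds. SMC, Endo and PVM lie far above their level elsewhere in all 4 sections, PVM is highest in the ketamine-treated and resilient sections with overlapping intervals, and Peri and Micro lie near or at 0.

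Oligodendrocytes were sparse in the cluster. Oligo averaged 2.73% in the ketamine-treated, 2.25% in the susceptible, 4.61% in the resilient and 7.32% in the control section, against 12.9%, 14.1%, 16.3% and 22.5% in the other spots. It was held by 7 of 87 spots (8.05%, 3.30 to 15.9), 6 of 71 (8.45%, 3.16 to 17.5), 13 of 89 (14.6%, 8.01 to 23.7) and 15 of 60 (25%, 14.7 to 37.9). The control section was the highest both inside and outside the cluster, though the intervals within the cluster overlapped. Oligodendrocyte precursors (OPC) were kept in 1 resilient and 1 control spot, and in no spot of the other sections.

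Neuronal types were rare and scattered. Glutamatergic types together averaged 5.66% in the ketamine-treated, 5.11% in the susceptible, 5.43% in the resilient and 6.55% in the control section, against 47.2%, 46.4%, 43.9% and 40.2% in the other spots. GABAergic types averaged 0.427%, 0.664%, 0% and 1.23%. In all, 26 of the 58 neuronal types appeared in at least 1 spot of the cluster. L2_IT_RSP_ACA, a layer 2 type whose name refers to retrosplenial and anterior cingulate areas, had the highest neuronal mean in the ketamine-treated and susceptible sections. It averaged 2.83% in the ketamine-treated, 2.99% in the susceptible, 0% in the resilient and 0.937% in the control section. It was in 8, 6, 0 and 2 spots, and the 0 of 89 resilient spots allows up to 3.37%.

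The other neuronal types that reached a mean of 1% did so in 1 section each and on few spots. DG, the granule neurons of the dentate gyrus, averaged 1.43% in the control section from 3 spots, and was in 1 spot of each of the other sections. L5_PT_RSP_ACA, a layer 5 projection type of the same medial cortex, averaged 1.41% in the resilient section, where 1 of its 2 spots was wholly of this type. It was in 1 ketamine-treated spot and in no susceptible or control spot. CR, named for the Cajal-Retzius cells of the outermost cortical layer, was in 1 ketamine-treated and 2 susceptible spots and in no resilient or control spot. The list of surface neurons (CR and every type named for layer 2 or layers 2 and 3) averaged 3.61%, 4.32%, 0.905% and 1.52% in cluster 12, against 21.2%, 20.0%, 12.1% and 15.9% in the other spots.

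In the deposited t-SNE map, a drawing in which spots with similar profiles lie close, cluster 12 formed 1 strip shared by all sections. The map and the clusters describe the same spots, so the closeness of its members is a description, with no test. No value for another cluster is set beside it. Of the 10 nearest spots of each member, 92.2% on average were also in cluster 12, with 90.7% in the ketamine-treated, 90.0% in the susceptible, 93.4% in the resilient and 95.5% in the control section. The neighbours within the cluster came from the member's own section in 29.4%, 29.0%, 34.1% and 25.7% of cases, while the sections held 28.3%, 23.1%, 29.0% and 19.5% of the members. The sections were therefore mixed in the strip, with a slight excess of own-section neighbours. With 30 neighbours the excess was absent in the ketamine-treated section, at 27.3% against 28.3%, and remained in the susceptible, resilient and control sections. For 292 of 307 spots, at least 5 of the 10 neighbours were in the cluster. The remaining 15 spots had a mean VLMC share of 23.7% and Astro share of 37.4%, against 43.4% and 23.7% in the 292. Among the neighbours outside the cluster, 25.6% were in cluster 1 and 23.9% in cluster 11.

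**Figure D5:**
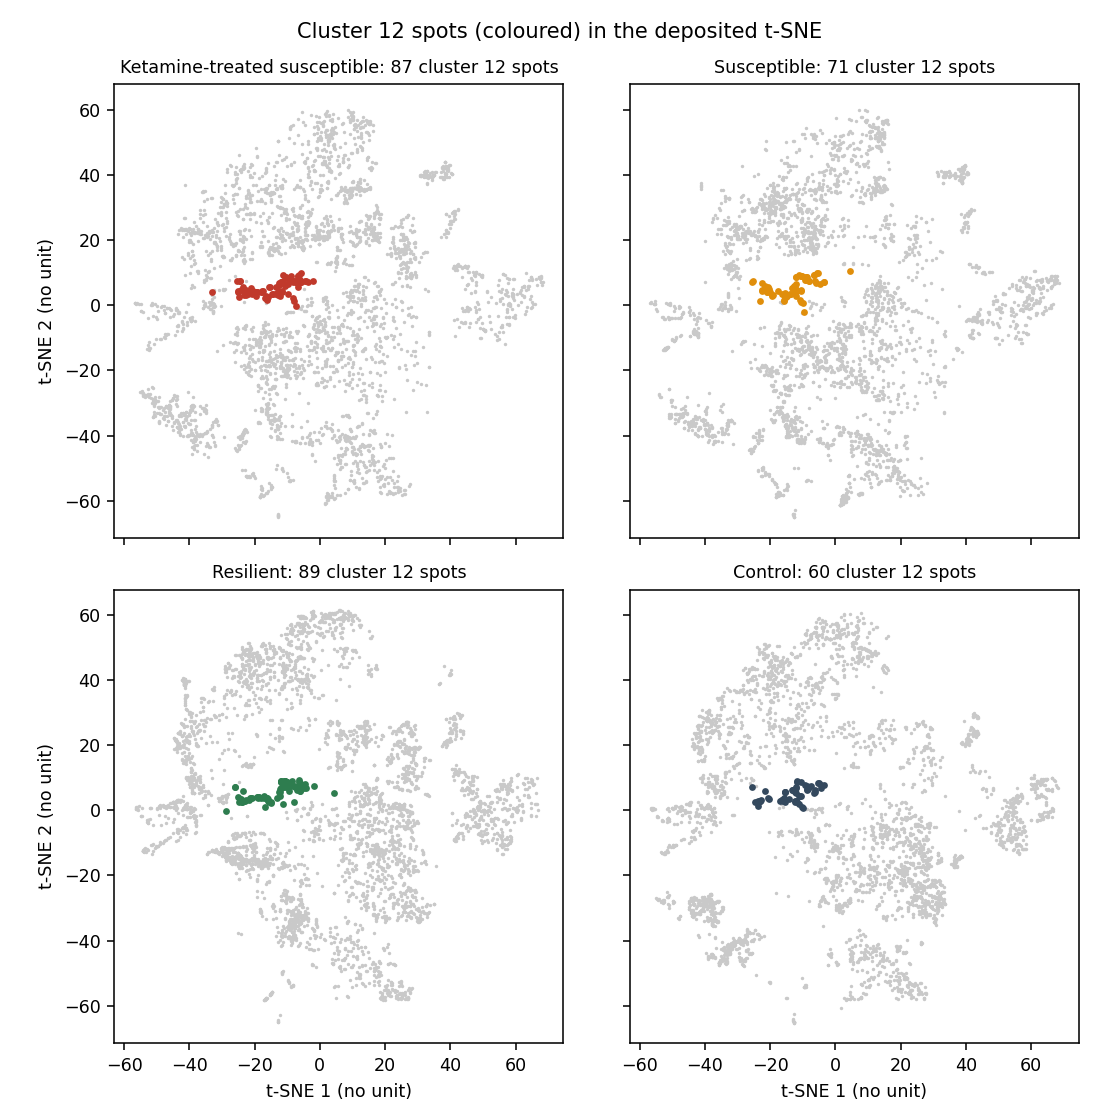
The deposited t-SNE map (2 axes without a unit), drawn once per section, with cluster 12 spots coloured and all other spots of that section in grey. The 87, 71, 89 and 60 coloured spots fall in the same narrow strip in every section, with a few outliers.

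The susceptible section was set against the control section to ask what accompanied defeat with social avoidance. VLMC stood at 42.95% against 39.6% (ratio 1.09; by spots holding it, 0.991), SMC at 10.2% against 10.2% (0.997), Endo at 6.20% against 6.81% (0.910) and PVM at 4.90% against 3.37% (1.45). Of 8 types that averaged 1% or more in cluster 12 of either section, 3 differed by 1.5-fold or more, or 37.5%, beside 33.3% of the 21 such types over all spots of the 2 sections. L2_IT_RSP_ACA was higher, at 2.99% against 0.937%, and Oligo (2.25% against 7.32%) and DG (0.493% against 1.43%) were lower. None of the vascular types was among the 3. With so few types, such a share is near that of the whole sections and says nothing particular about the cluster.

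The resilient section was set against the control section in the same way. VLMC stood at 44.8% against 39.6% (ratio 1.13) and PVM at 7.00% against 3.37% (2.07), with PVM in 30.3% against 15% of spots. Of 8 types, 4 differed by at least 1.5-fold, or 50%, beside 39.1% of 23 over all spots. PVM and L5_PT_RSP_ACA were higher, and Oligo (4.61% against 7.32%) and DG were lower. L5_PT_RSP_ACA was listed at 0 in the control cluster, so it has no fold.

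The ketamine-treated section was likewise set against the control section. Of 9 types, 5 differed by at least 1.5-fold, or 55.6%, beside 27.3% of 22 over all spots. The cluster means rest on 87 and 60 spots and the section means on 3477 and 3733. Counting error is thus larger in the cluster, and the percentages are not like for like. The same limit holds for every such pair of percentages here. PVM was 3.005-fold higher by mean share and 2.07-fold by spots holding it, and L2_IT_RSP_ACA was 3.02-fold higher, at 2.83% against 0.937%. Oligo (2.73% against 7.32%), DG and SMC (6.24% against 10.2%, ratio 0.609) were lower. By spots holding each type, 4 of the 9 types differed by at least 1.5-fold, and 4 of 8 for the resilient section. No share over all spots is given by this measure, so these counts have no background. SMC was held by 21.8% against 30% of spots (0.728). VLMC stood at 41.6% against 39.6% (1.05) but was held by 83.9% against 86.7% of spots (0.968), and Endo at 7.31% against 6.81% (1.07).

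The susceptible and resilient sections, both from defeated mice, differed little in the vascular types of the cluster. VLMC stood at 42.95% against 44.8% (ratio 0.960), Endo at 6.20% against 5.86% (1.06) and SMC at 10.2% against 9.04% (1.13). PVM was at 4.90% against 7.00% (0.701), in 18.3% against 30.3% of spots. Of 8 types, 3 differed by at least 1.5-fold, or 37.5%, beside 43.5% of 23 over all spots. L2_IT_RSP_ACA was at 2.99% against 0%, L5_PT_RSP_ACA at 0% against 1.41% and Oligo at 2.25% against 4.61%.

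The ketamine-treated section was set against the susceptible section to ask what differed after the drug. PVM was 2.07-fold higher, at 10.1% against 4.90%, and in 31.03% against 18.3% of spots (1.69-fold). SMC was lower, at 6.24% against 10.2% (ratio 0.611), and in 21.8% against 25.4% of spots (0.861). Micro, at 1.10% against 0%, was the remaining type of the 3 of 8 that differed by at least 1.5-fold, or 37.5%, beside 14.3% of 21 over all spots. The first percentage again rests on far fewer spots, so the 2 cannot be compared directly. VLMC stood at 41.6% against 42.95% (0.969), Endo at 7.31% against 6.20% (1.18), Astro at 24.1% against 27.7% (0.869) and Oligo at 2.73% against 2.25% (1.21).

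Across the 5 comparisons and 14 named columns (the 9 non-neuronal types, unknown, L2_IT_RSP_ACA, DG, L5_PT_RSP_ACA and CR), none of the 70 pairs of intervals for the share of spots holding a type lay apart, and none for the share of spots led by it. Some pairs could not lie apart, since unknown was at 0 in every section and Peri in all but the ketamine-treated section. Several other types were held or led by few spots, so their intervals were wide. Overlap of such intervals does not show that the shares were alike, and with 1 section a group a difference between sections cannot be read as one between conditions. The comparisons with control share 1 control section, and those with the susceptible section share that section. Differences between mice, slides and cutting planes lie within each of them and cannot be told apart from the group.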

How the data were processed

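Spatial transcriptomics of 4 mouse brain sections (control, resilient, susceptible, ketamine-treated susceptible; 1 each) was deposited as 1 table per section, giving each spot's cluster and the fraction of it that the authors assigned to each cell type. The sources used here do not give the clustering or cell type methods. The genome named in the submitters' processing notes is mm10. Gene counts were not analysed here, so depth is unknown and precision rests on spot numbers (3477 ketamine-treated, 3443 susceptible, 4156 resilient, 3733 control). No fraction above 0 was below 10.1% of a spot, so smaller shares appear as 0.

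Fractions of cluster 12 spots were averaged per section with Python 3.11.15 and pandas 2.3.3, and exact Clopper-Pearson 95% intervals came from scipy 1.17.1. A type differed where its mean was at least 1% in either section and the means were at least 1.5-fold apart, a type at 0 in 1 section included. No test was run, since spots are not replicates. All non-neuronal types, unknown, CR and neuronal types averaging 1% or more in cluster 12 of any section are named. The deposited t-SNE coordinates were joined by barcode: the barcodes of each suffix were exactly those of 1 section. Sections shared between 2735 and 3304 barcodes in pairs, and cluster 12 held 9 barcodes in more than 1 section. Neighbours were found with scikit-learn 1.9.0. The calculation of ratios was tested on simulated data drawn from all spots of the control section, not from cluster 12. A pass was required only at a far larger number of spots than the cluster has. Members, lists and rules were chosen with earlier results of these data known. Alternatives were spots holding or led by a type, unknown spots left out, shares under 20% set to 0, a minimum mean of 2% and 30 neighbours.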

Additional observations from a re-analysis of the deposited data

How the results depend on the processing

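Of 137 values recomputed under another setting, 128 stayed within the counting interval of the reported value, or, for counts of types, within 1.5 times. Counted by spots led, the VLMC ratio in cluster 12 was 1.33 for the ketamine-treated over the control section, where the mean share gave 1.05, and 1.21 for the ketamine-treated over the susceptible section, where it gave 0.969; the cause was not tested. The count of types 1.5-fold apart between the resilient and control sections was 2 with a minimum mean of 2%, where a minimum of 1% gave 4, since fewer types were compared. The Oligo ratio of the resilient over the control section was 1.01 by spots led (3 and 2 spots), where the mean share gave 0.629; the cause was not tested. The PVM ratio of the ketamine-treated over the control section ranged from 2.07 by spots holding it to 3.84 with shares under 20% set to 0; the settings for types other than VLMC were chosen after seeing the data. The Astro ratio of the ketamine-treated over the control section was 0.776 by spots led, where the mean share gave 1.01; the cause was not tested. Endo ratios by spots led, which rest on 1 to 4 spots a section, spread from 0.169 (resilient over control) to 2.51 (susceptible over resilient). Leaving out unknown spots could change no ratio, as the cluster had none, so these unchanged ratios are among the 128 by construction. With 30 neighbours, 92.3% lay in the cluster, where 10 gave 92.2%. No paired analysis was possible because each group has 1 section and no test was run. A type at 0 has no kept share, which does not exclude shares too small to be kept.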

Other observations

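The strip that cluster 12 forms in the t-SNE map was not uniform. It was cut along the first t-SNE axis into 3 parts of 102, 102 and 103 spots, a division chosen after seeing the map. Pooled over the sections, astrocytes and neurons were highest in the first part, where most spots also held VLMC. VLMC was highest in the middle part, and endothelium, macrophages and oligodendrocytes in the last. Astro averaged 35.6%, 18.6% and 19.1% along the parts, and neuronal types 11.6%, 3.34% and 3.58%. VLMC averaged 32.3%, 51.1% and 43.9%, and was held by 75.5% (66.0 to 83.5), 96.1% (90.3 to 98.9) and 87.4% (79.4 to 93.1) of spots. SMC was held by 28.4% (19.9 to 38.2), 34.3% (25.2 to 44.4) and 13.6% (7.63 to 21.8). Endo, in contrast, was held by 19.6% (12.4 to 28.6), 20.6% (13.2 to 29.7) and 35.9% (26.7 to 46.0), and PVM by 12.7% (6.96 to 20.8), 26.5% (18.2 to 36.1) and 34.95% (25.8 to 44.98). Oligo was held by 4.90% (1.61 to 11.1), 13.7% (7.71 to 22.0) and 21.4% (13.9 to 30.5).

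By mean share, some highest and lowest parts were shared by the 4 sections taken alone. Astro and the neuronal types were highest in the first part, VLMC in the middle part and PVM and Endo in the last part in 4 of 4. SMC was lowest in the last part in 4 of 4. The full orders differed between sections. In the susceptible section only, SMC was highest in the first part, at 15.6%, and Oligo in the middle part, at 3.43% against 3.01% in the last. In the control section the Endo means were nearly level, at 7.04%, 6.41% and 7.23%. By spots holding a type, the control section differed: Endo was lowest in the last part (25%, 25.9% and 23.5% along the parts) and PVM was highest in the middle part (18.5%, against 17.6% in the last). PVM averaged 2.16%, 11.7% and 18.3% along the parts in the ketamine-treated section, 1.36%, 6.38% and 6.65% in the susceptible section, 6.59%, 3.93% and 9.37% in the resilient section, and 1.22%, 3.80% and 4.73% in the control section. With 4 parts, the mean of VLMC was highest in the third in each section, but several of the other shared highest and lowest parts did not hold. PVM was highest in the last part in the ketamine-treated section only. In the susceptible section it was 4.34% in the last part against 8.78% in the third, in the resilient section 7.09% against 8.91% in the third, and in the control section 3.74% against 5.07% in the second. In the control section Endo was lowest in the last part, at 4.76%, and SMC was not lowest there, at 9.51% against 6.97% in the third. Astro in the susceptible section was 33.8% in the second part against 31.6% in the first. The t-SNE position and the shares describe the same spots, so this is a description of the cluster. Per section, each of the 3 parts rests on 16 to 36 spots and each of the 4 parts on 12 to 28.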
